A study of Mus musculus with 20 samples.

Results

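The genes described are the 10 receptor genes Klrk1, Klrd1, Klrc1, Klrc2, Klre1, Klri2, Klrb1c, Klrb1b, Klrb1f and Klrg1, chosen by name from the 53714 genes of the table. They encode the NKG2 chains and their partner CD94, the KLRE and KLRI chains, 3 NKR-P1 receptors and KLRG1. Their normalized reads were compared in 20 RNA libraries of sorted CD4+ iNKT1 cells, the interferon-γ producing type of invariant natural killer T cell. All cells came from female mice aged 8 to 12 weeks, of the strains C57/BL6N (BL6) or BALB/c, with no genetic change or drug treatment labelled. From BL6 there were 3 libraries each of thymus, spleen, blood, liver_C and liver_H, and from BALB/c 2 libraries of liver_C and 3 of liver_H. Cold meshing gave the liver_C and spleen cells, and liver_H was the liver digested with collagenase D and DNase I for 30 min at 37 °C. Livers were also perfused, and liver lymphocytes were enriched by a spin in Percoll that was not in the cold. These steps are not described for spleen, so organ and preparation cannot be told apart between spleen and liver. Thymus cells were gated on CD122 and spleen and liver cells on CXCR3, and the gate for blood is not given in the sources used here. None of the gates given used a product of the 10 genes. A spleen or liver library came from a pool of 4 to 6 mice, so the libraries and not the mice were the replicates. The study describes replicate libraries as independent experiments or sequencing runs, and each p measured the spread between them. Each liver was split, with 1 part kept cold and the other digested, and which liver_C and liver_H libraries share mice is not labelled.

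NKG2 receptors are C-type lectin-like receptors of natural killer cells that are also carried by iNKT1 cells and memory T cells. NKG2A and NKG2C, the products of Klrc1 and Klrc2, each pair with CD94, the product of Klrd1, and bind the nonclassical MHC molecule Qa-1b. NKG2A carries inhibitory motifs in its tail, whereas NKG2C signals through the adaptor DAP12. NKG2D, the product of Klrk1, binds stress-induced ligands as a homodimer and signals through DAP10 or DAP12. In mice KLRE1 forms heterodimers with the KLRI chains, and KLRI2 is the activating one. The NKR-P1 receptors include the activating NKR-P1C, better known as NK1.1, the inhibitory NKR-P1B, which binds Clr-b, and NKR-P1F, which binds Clr-g. KLRG1 is an inhibitory receptor for cadherins and marks mature natural killer cells and late effector T cells.

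All 10 genes lie on mouse chromosome 6 (GRCm38.p6, coordinates of the deposited table). Klrg1 (ENSMUSG00000030114.8) is at chr6:122270596-122282882, and the other 9 lie within chr6:128778485-129740484, a span of 0.962 Mb of the natural killer gene complex. The NKR-P1 genes come first, with Klrb1c (ENSMUSG00000030325.16) at chr6:128778485-128789215, Klrb1b (ENSMUSG00000079298.9) at chr6:128813706-128826331 and Klrb1f (ENSMUSG00000030154.10) at chr6:129045901-129057464. Klre1 (ENSMUSG00000050241.8) at chr6:129577905-129585827 and Klrd1 (ENSMUSG00000030165.16) at chr6:129591782-129598775 are neighbours. Klrk1 (ENSMUSG00000030149.15) at chr6:129610323-129623864 is followed by Klrc2 (ENSMUSG00000052736.15) at chr6:129647496-129660689, Klrc1 (ENSMUSG00000030167.15) at chr6:129666015-129678973 and Klri2 (ENSMUSG00000043932.5) at chr6:129729041-129740484. Klrd1, Klre1 and Klrb1f are on the plus strand and the other 7 members on the minus strand. Exons of each gene together measured 1281 bases (Klrd1) to 7183 bases (Klrk1).

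Family members are close copies, which limits what a read of 75 bases can tell apart. Of the 2055 stretches of 75 bases in the Klrc1 transcripts of GENCODE M21, 508 (24.7%) were also in Klrc2, and these were 8.32% of the Klrc2 stretches. Klrk1, Klrd1, Klre1, Klrb1f and Klrg1 shared no such stretch with any other gene, and Klri2 shared 0.886% of its stretches. The coding sequences are shown where the pair can and cannot be separated, with capitals for the bases that differ when both are laid side by side without gaps. At the first 60 coding bases, which encode an inhibitory motif in the tail of NKG2A, 37 positions differed (chr6:129678851-129678910 and chr6:129660497-129660556, GRCm38, minus strand).
Klrc1-201: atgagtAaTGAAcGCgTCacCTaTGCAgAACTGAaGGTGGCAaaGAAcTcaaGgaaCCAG
Klrc2-202: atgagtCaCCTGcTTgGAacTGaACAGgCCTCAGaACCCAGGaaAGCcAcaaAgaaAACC
At the last 120 coding bases only 2 positions differed, with a run of 103 identical bases, longer than a read. Those windows span an intron at chr6:129674859-129675301 and chr6:129656371-129656813.
Klrc1-201: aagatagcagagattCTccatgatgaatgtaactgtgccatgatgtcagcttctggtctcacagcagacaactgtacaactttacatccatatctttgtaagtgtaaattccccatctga
Klrc2-202: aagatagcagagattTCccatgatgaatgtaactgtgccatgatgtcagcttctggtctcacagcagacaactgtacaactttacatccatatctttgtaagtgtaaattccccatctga
A read that falls wholly within that run cannot be assigned to 1 of both genes, so the Klrc1 and Klrc2 values rest on the other parts of the transcripts.

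Klrb1c overlapped in sequence with Klrb1a, an activating NKR-P1 receptor gene nearby, over a small part only. They shared 39 of the 3028 stretches of 75 bases in Klrb1c (1.29%), which include those of a coding run of 108 identical bases at chr6:128785947-128788439 and chr6:128620274-128622773. That run is shown because the pair moved in opposite directions between the strains.
Klrb1c-201: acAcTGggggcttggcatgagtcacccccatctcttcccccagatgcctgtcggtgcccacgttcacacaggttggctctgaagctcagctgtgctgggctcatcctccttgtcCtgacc
Klrb1a-201: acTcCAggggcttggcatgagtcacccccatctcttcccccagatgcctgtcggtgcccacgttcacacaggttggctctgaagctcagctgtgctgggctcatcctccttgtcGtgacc
The read-through transcript Gm44511 covers 13.9% of the exonic bases of Klrb1c and 26.9% of those of Klrb1b on the same strand, and it was listed at 0 in all 20 libraries. Of the Klrb1b stretches 23.8% were also in Gm44511. BALB/c reads were aligned to the C57BL/6 genome, and the part of strain sequence differences in the counts was not tested.

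Promoters of 7 of the 10 members were in the RefSeq table (GRCm38.p6), each covering 250 bases before and 50 after a start site. Of these, 4 are shown for genes that were all called higher in BL6 than in BALB/c liver_C below. Capitals mark the RUNX core TGTGGT and the AP-1 motif TGANTCA, searched on both strands together with the T-box motif TCACACC, and the matches shown do not overlap each other.
Klrk1 promoter, chr6:129623815-129624114, minus strand: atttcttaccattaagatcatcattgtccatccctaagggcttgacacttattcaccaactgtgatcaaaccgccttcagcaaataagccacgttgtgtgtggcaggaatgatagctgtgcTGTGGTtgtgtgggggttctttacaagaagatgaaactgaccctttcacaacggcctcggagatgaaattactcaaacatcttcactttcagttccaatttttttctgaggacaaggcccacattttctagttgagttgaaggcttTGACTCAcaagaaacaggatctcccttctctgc
Klrc2 promoter, chr6:129660547-129660846, minus strand: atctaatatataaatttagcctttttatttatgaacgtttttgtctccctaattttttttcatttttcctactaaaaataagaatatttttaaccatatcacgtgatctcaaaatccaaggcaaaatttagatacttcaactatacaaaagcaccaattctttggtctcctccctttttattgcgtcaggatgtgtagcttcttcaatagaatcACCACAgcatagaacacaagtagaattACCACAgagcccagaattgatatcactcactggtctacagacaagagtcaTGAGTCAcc
Klre1 promoter, chr6:129577963-129578262, plus strand: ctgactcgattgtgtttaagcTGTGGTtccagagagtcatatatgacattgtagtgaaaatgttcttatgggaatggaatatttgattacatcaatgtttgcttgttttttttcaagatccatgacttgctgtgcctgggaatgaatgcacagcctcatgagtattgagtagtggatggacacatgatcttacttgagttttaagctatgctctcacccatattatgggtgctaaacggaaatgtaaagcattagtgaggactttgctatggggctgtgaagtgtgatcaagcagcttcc
Klrb1c promoter, chr6:128788592-128788891, minus strand: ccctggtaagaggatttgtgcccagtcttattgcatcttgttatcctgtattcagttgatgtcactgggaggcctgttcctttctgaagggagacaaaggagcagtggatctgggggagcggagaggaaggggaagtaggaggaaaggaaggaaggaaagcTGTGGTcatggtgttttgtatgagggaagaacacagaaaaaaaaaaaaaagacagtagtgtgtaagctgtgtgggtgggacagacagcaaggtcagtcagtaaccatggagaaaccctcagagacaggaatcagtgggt
RUNX letters were in the promoters of 5 of the 7 members (Klrk1, Klrc1, Klrc2, Klre1 and Klrb1c) and in 16.8% of all 32851 promoters of the table. Some members have 2 promoters and were counted if either matched, whereas the shares of all promoters count each promoter singly. The second Klre1 promoter, not shown, held no RUNX letters. AP-1 letters were in 2 of the 7 (Klrk1 and Klrc2) and in 7.81% of all promoters. The AP-1 match of Klrc2 lies at its start codon. T-box letters were in 0 of the 7 and in 3.98% of all. These are letter matches in a short window, and no binding was measured.

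The libraries held 9336861 to 22879834 reads (median 12457758). Of 8 iNKT1 markers, 7 were present in every library, with Cd4 at 1803 to 3613, Zbtb16 at 1006 to 2647 and Il2rb at 13100 to 32390 normalized reads, and the T cell receptor segment Trav11 was listed at 0 in all 20. Markers of natural killer cells and ILC1 summed to 276 to 657 over 8 genes, of which Eomes reached at most 20.9 and Ncr1 at most 126. Double-positive thymocyte markers summed to 10367 to 23280 over 6 genes in thymus and to at most 2548 elsewhere, and Cd8a reached 2318 in thymus. B and plasma cell markers summed to 477 to 940 over 7 genes in spleen and to 5.11 to 19.3 in liver_C. Bulk RNA cannot tell fewer cells with a receptor from less RNA per cell, and that holds for each difference below.

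Levels per kilobase of transcript ranked Klrc1, Klrb1c and Klrd1 highest in each BL6 group. In BL6 liver_C the normalized reads per kb were 1394 ± 67.5 for Klrc1, 1014 ± 111 for Klrb1c, 546 ± 37.5 for Klrd1 and 259 ± 26.0 for Klrk1 (SD, n = 3). The other 6 ranged from 16.3 for Klrg1 to 147 for Klrb1f. In the thymus the order changed, with Klrb1c at 972.5 ± 205 per kb, Klrd1 at 737 ± 158 and Klrc1 at 704 ± 122. In BALB/c liver Klrd1 stood first, at 293 ± 56.4 per kb in liver_H (n = 3), ahead of Klrc1 at 225 ± 29.1, and Klrb1c was behind 4 others at 75.2 ± 6.49. The order of the groups was not the same for each gene. Klre1 had means of 514 in BL6 liver_C, 508 in liver_H, 469.6 in thymus and 354 in blood, where each group overlapped the next, and 141 in spleen, 66.6 in BALB/c liver_H and 54.3 in BALB/c liver_C, of which only the BALB/c groups overlapped each other. Klrk1 had means of 1890.0 in BL6 liver_H, 1882 in thymus and 1861 in liver_C, which overlapped, then 1405 in blood, which did not overlap liver_C, and 1204 in BALB/c liver_H, 1095 in spleen and 915 in BALB/c liver_C, each overlapping the next. Klrc1 ran from 2766 in BL6 liver_C to 1833 in spleen through overlapping neighbours, followed without overlap by 1397 in thymus and then by 447 and 401 in the BALB/c groups. All 10 genes reached the minimum of 10 normalized reads in 3 or more libraries in every fit.

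**Figure D1:**
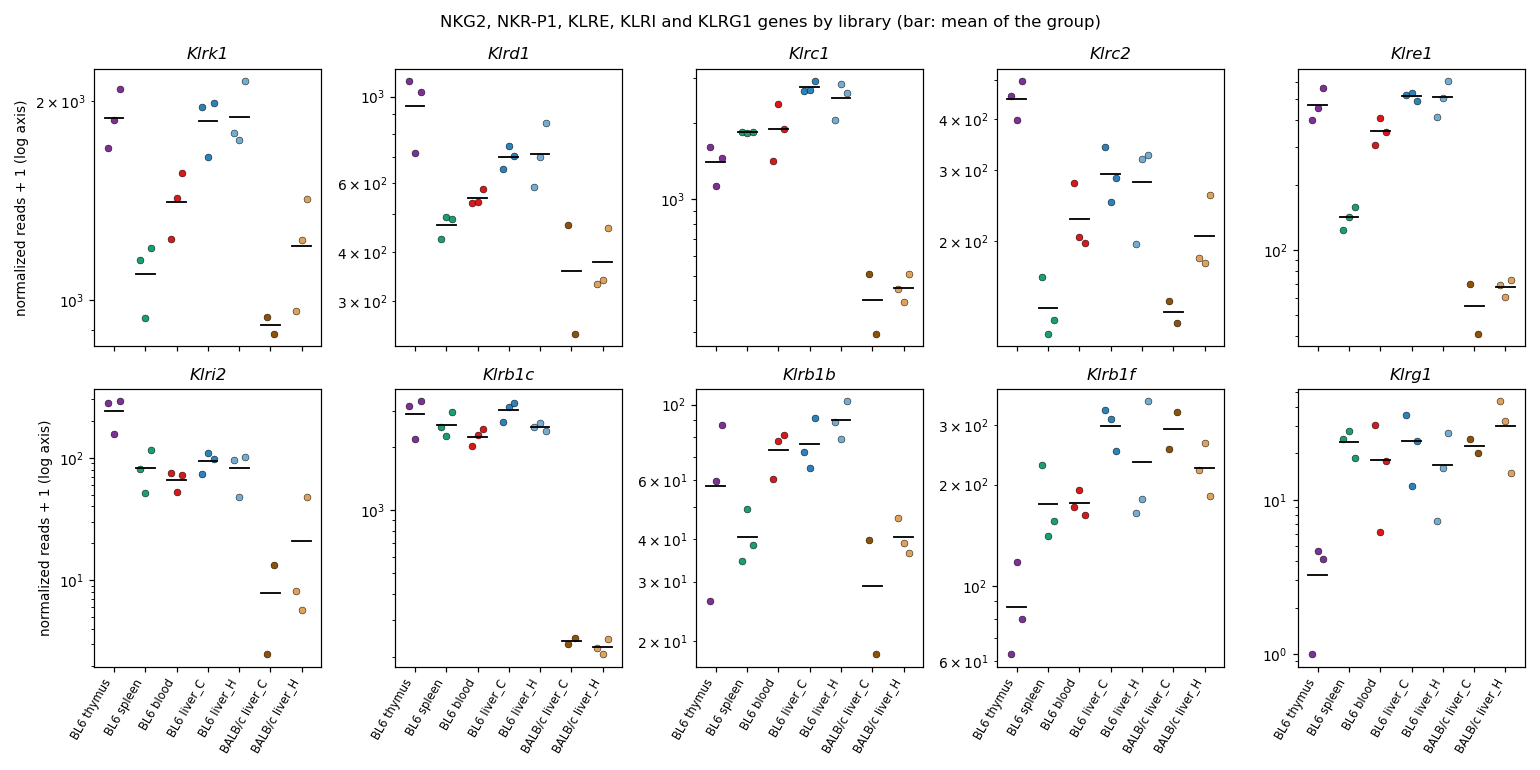
Normalized reads plus 1 on a log axis for each of the 10 genes (panels), with 1 point per library and a bar at the mean of each of the 7 groups on the x axis. Klrb1c, Klrc1 and Klre1 are low in both BALB/c groups (Klrb1c 205 to 245 against 2020.4 to 3314 in BL6), Klre1 is low in BL6 spleen, and Klri2 and Klrc2 are highest in BL6 thymus.

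The first comparison asked whether splenic cells differ from liver cells when both were meshed in the cold. Perfusion and a spin in Percoll are described for the liver only. Klre1, Klrc2, Klrk1 and Klrc1 were lower in BL6 spleen than in BL6 liver_C, and no member was higher. Klre1 measured 123, 142 and 157 normalized reads in the 3 spleen libraries and 521, 532 and 491 in the 3 liver_C libraries. The groups stood far apart, with a log2 fold change of -1.87 ± 0.17 (SE) and an adjusted p of 1.7e-05 (limma). Klrc2 measured 162, 117 and 127 in spleen and 340.0, 249 and 285 in liver_C. That is a 2.15-fold lower level of the activating chain, without overlap of the libraries (log2 fold change -1.10 ± 0.22, adjusted p = 0.012, limma). Klrk1, the gene for NKG2D, measured 1148, 938 and 1198 in spleen and 1957, 1646 and 1981 in liver_C (log2 fold change -0.77 ± 0.13, adjusted p = 0.0052, limma). Klrc1, the inhibitory chain, measured 1837, 1816 and 1845 in spleen, a narrow range, and 2677, 2700.0 and 2919.8 in liver_C (log2 fold change -0.59 ± 0.12, adjusted p = 0.018, limma).

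Their partner CD94 did not reach the threshold. Klrd1 measured 432, 489.8 and 486 in spleen and 649.8, 746 and 704 in liver_C, with a log2 fold change of -0.58 ± 0.15 and an adjusted p of 0.051 (limma), and it passed with edgeR, DESeq2, a pseudocount of 10, the library number range as a block and without liver_H library N0963 or N1225. The NKR-P1 genes and Klri2 and Klrg1 did not pass the test either. Klrb1c was close in both organs, at 2567 ± 346 in spleen and 3004 ± 329 in liver_C, with a 95% interval of the log2 fold change of -0.50 to 0.04. In spleen Klrb1b and Klrb1f measured 39.7 ± 7.53 and 174 ± 46.8, against 75.3 ± 13.5 and 298 ± 42.0 in liver_C (adjusted p = 0.11 and 0.16, limma). Klrb1b passed with DESeq2 (adjusted p = 0.043) and Klrb1f with the number range as a block (adjusted p = 0.0098). So 4 of 10 members were called lower and 0 higher, where 1.63% of the 12802 genes tested were lower and 0.914% higher. The median log2 fold change was -0.68 over the members and 0.01 over all genes. Without spleen library N1377 or N1381 or liver_C library N1383, Klrc1 and Klrc2 missed the threshold and the count was 2. Klrc1 also missed it with quantile normalization (adjusted p = 0.057, limma) and with all 20 libraries in the fit (adjusted p = 0.21, limma).

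The libraries fall into 3 ranges of library numbers, and spleen and liver_C both occur in 2 of them. Within the ranges 2 and 3 Klre1 differed by -2.07 and -1.77, Klrk1 by -0.77 and -0.77, Klrc2 by -1.06 and -1.12 and Klrc1 by -0.54 and -0.62 on the log2 scale. All 4 called genes kept their direction in both ranges, which was fixed in advance because their spleen and liver_C libraries did not overlap. B and plasma cell markers were called higher in spleen in 5 of 5 genes tested, and their part in the result was not tested. Natural killer cell markers summed to 301 to 334 in spleen and 298 to 362 in liver_C, so they overlapped, and 0 of 6 tested were called (limma, 1 at an unadjusted p under 0.05).

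Among genes that work with these receptors, 4 lists were counted in the same test. Of 15 signalling partners tested, 1 was higher and 1 lower in spleen. Ptpn6, the phosphatase SHP-1 that inhibitory receptors recruit, measured 1807, 1916 and 1648 in spleen and 3469, 2948 and 3289 in liver_C and fell (log2 fold change -0.85 ± 0.13, adjusted p = 0.0017, limma). Syk, a kinase used by activating receptors and by B cells, rose (3.003 ± 0.63, adjusted p = 0.018, limma). The adaptors Hcst (DAP10) and Tyrobp (DAP12) were not called, at 653 ± 82.6 and 27.8 ± 3.24 in spleen and 502 ± 59.99 and 31.0 ± 4.22 in liver_C. Of 15 transcription factors and cytokine receptors of the natural killer programme, Il2rb (-0.75 ± 0.15) and Il12rb2 (-0.88 ± 0.14) were lower in spleen, Il18r1 (1.08 ± 0.21) and Il18rap (0.58 ± 0.14) were higher, and 11 were not called. None of the 5 ligand genes tested and neither of the 2 other family receptors tested was called (limma), with 0 and 0 at an unadjusted p under 0.05.

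Circulating cells were compared with both organs, and these comparisons share the spleen and liver_C libraries with the one above. Klre1 was higher in blood than in spleen, at 305, 406 and 352 normalized reads in the 3 blood libraries against 123, 142 and 157 in spleen. No library overlapped, and the log2 fold change was 1.32 ± 0.17 (adjusted p = 1.9e-04, limma). It was the only member of 10 called, where 2.96% of 13604 genes tested were higher and 1.26% lower in blood. Klrc2 measured 277, 203 and 197 in blood and 162, 117 and 127 in spleen, just outside the threshold (adjusted p = 0.053, limma). Klrk1 and Klrb1b were at 1405 ± 159.7 and 72.3 ± 11.2 in blood against 1095 ± 138 and 39.7 ± 7.53 in spleen (adjusted p = 0.14 and 0.21, limma). Klrc1 was at 1889 ± 479 in blood, close to spleen, and its libraries spread widely at 1409, 2368 and 1889. Klrc2 passed with DESeq2, with the filter of over 300, with the number range as a block (where Klrk1 passed too) and without thymus library N1376, spleen library N1226, liver_C library N1224 or liver_H library N0963, so the count was then 2 or 3.

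No member was called between blood and liver_C (limma), where 0.118% of genes were higher and 0.147% lower in blood, and none with edgeR or DESeq2. At an unadjusted p under 0.05 there were 6, namely Klrk1, Klrd1, Klrc1, Klre1, Klrb1c and Klrb1f, each lower in blood. Klre1 measured 305, 406 and 352 in blood and 521, 532 and 491 in liver_C, which do not overlap (log2 fold change -0.55 ± 0.17, adjusted p = 0.27, limma). Klrc1 differed by -0.58 ± 0.16 and Klrb1f by -0.76 ± 0.28 (adjusted p = 0.19 and 0.41, limma). Klre1 in blood thus lay between spleen and liver, nearer to the liver. Of the partner lists, Ptpn6 (0.51 ± 0.12), Il2rb (0.78 ± 0.14) and Il12rb2 (0.77 ± 0.15) were higher and Il18r1 (-0.78 ± 0.21) lower in blood than in spleen, and Cd69, a lectin-like retention receptor of the same gene complex, was lower in blood than in spleen (-0.88 ± 0.20) and than in liver_C (-1.08 ± 0.20).

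Markers of other cells moved with the blood as well. Double-positive thymocyte markers summed to 176 to 2548 over 6 genes in blood, 71.3 to 168 in spleen and 13.6 to 46.5 in liver_C, and of these only Cd8a was called, higher in blood than in liver_C (4.79 ± 0.71, adjusted p = 0.0031, limma). Rag1 measured 1539.8, 487 and 88.8 in the blood libraries, so N0962 stood highest, and the same library held the highest Klrc2 and the lowest Klrc1. Igkc and Jchain, made by B and plasma cells, were lower in blood than in spleen. Without N0962 Klre1 was still the 1 member called against spleen (log2 fold change 1.43, adjusted p = 0.00043, limma), Klrc2 differed by 0.57 (adjusted p = 0.24) and Klrc1 by 0.21 (adjusted p = 0.62), and 0 members were called against liver_C. The part of such cells in the values was not tested further.

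The thymus was compared with spleen and with liver_C. Against spleen, Klre1, Klrc2, Klrd1, Klrk1 and Klri2 were higher in thymus and Klrb1f and Klrg1 were lower, 5 and 2 of 10, where 7.71% of 13604 genes tested were higher and 5.73% lower. Klrc2 measured 455, 396 and 495 in the 3 thymus libraries and 162, 117 and 127 in spleen. Every thymus library exceeded every other library of the series (log2 fold change 1.73 ± 0.21, adjusted p = 9.0e-06, limma). Klre1 measured 398, 452 and 559 in thymus, so that spleen was the low organ of the BL6 mice (log2 fold change 1.72 ± 0.17, adjusted p = 6.1e-07, limma). Klri2, its partner chain, measured 280.4, 155 and 287 in thymus and 79.5, 50.6 and 114 in spleen (log2 fold change 1.57 ± 0.34, adjusted p = 0.0034, limma). Klrd1 and Klrk1 rose by 0.99 ± 0.16 and 0.78 ± 0.13 (adjusted p = 1.9e-04 and 3.1e-04, limma), from 469 ± 32.4 to 945 ± 202 and from 1095 ± 138 to 1882 ± 192 normalized reads.

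KLRG1 reads were nearly missing in the thymus. Klrg1 measured 0, 3.66 and 3.15 in thymus, which are 0, 4 and 3 reads, against 23.8, 27.1 and 17.7 in spleen. The pooled reads were 7 and 69, a 9.18-fold lower level in thymus with an exact 95% counting interval of 4.23 to 23.7, and limma gave a log2 fold change of -3.13 ± 0.73 (adjusted p = 0.0056), which depends on the pseudocount at such counts. Klrb1f measured 61.9, 117 and 78.7 in thymus and 227, 139 and 154 in spleen (log2 fold change -1.02 ± 0.28, adjusted p = 0.016, limma). Without thymus library N0967 or N1380 or spleen library N1226 that call was lost (adjusted p = 0.054 to 0.092). The inhibitory chain went its own way, with Klrc1 at 1604, 1130.0 and 1457 in thymus and 1837, 1816 and 1845 in spleen (log2 fold change -0.41 ± 0.16, adjusted p = 0.12, limma). Klrb1c and Klrb1b were not called, with intervals of -0.15 to 0.45 and -0.39 to 1.10. With all 20 libraries in the fit Klri2 missed the threshold (adjusted p = 0.15, limma).

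Against liver_C the picture changed, since spleen and liver_C themselves differ. Klrc1, Klrb1f and Klrg1 were lower and Klri2 was higher in thymus, 3 and 1 of 10, where 6.27% of genes were lower and 6.2% higher. Klrc1 measured 1604, 1130.0 and 1457 in thymus and 2677, 2700.0 and 2919.8 in liver_C, about one step on the log2 scale (-0.999 ± 0.16, adjusted p = 2.6e-04, limma). Klrb1f differed by -1.82 ± 0.28 and Klrg1 by -3.03 ± 0.73 (adjusted p = 1.2e-04 and 0.0082, limma). Klri2 was at 241 ± 74.8 in thymus and 92.5 ± 18.3 in liver_C (log2 fold change 1.34 ± 0.34, adjusted p = 0.013, limma). Klre1 and Klrk1 differed little, with log2 fold changes of -0.14 ± 0.17 and 0.02 ± 0.13 and intervals of -0.50 to 0.21 and -0.26 to 0.29. Klrc2 was at 449 ± 49.9 and 292 ± 45.7 (adjusted p = 0.056, limma), and it passed with the number range as a block (log2 fold change 0.71, adjusted p = 0.017), with DESeq2 (adjusted p = 0.035), with the filter of over 300 and without spleen library N1226 or liver_H library N0963. Klrd1 passed without thymus library N1376 (adjusted p = 0.012). The count was 2 without liver_C library N1224, where Klri2 and Klrg1 missed the threshold, and Klri2 also missed it without thymus library N0967 or N1380 and with all 20 libraries in the fit (adjusted p = 0.25).

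Within the third number range, the only one with thymus, spleen and liver_C libraries together, all 7 genes called against spleen and all 4 called against liver_C kept their direction. That direction was fixed in advance, since the libraries compared did not overlap for any of these genes. Thymus and spleen cells were sorted by different gates, so gate and organ cannot be told apart. Thymocyte markers moved with the thymus, with all 6 called higher than in spleen, and natural killer cell markers summed to 548 to 657 in thymus and 301 to 334 in spleen. Of the latter, Fcer1g, Klra8 and Fcgr3 were higher in thymus, Ncr1 was lower, and Eomes, which defines natural killer cells, was at most 2.10 normalized reads there. Their part in the result was not tested.

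Adaptors and ligands moved as well. Fcer1g, the FcRγ chain through which NKR-P1C signals, measured 229.9, 263 and 333 in thymus and 39.3, 53.1 and 44.3 in spleen (log2 fold change 2.56 ± 0.29, adjusted p = 3.5e-06, limma). Ptpn6 was at 5018 ± 101 in thymus and 1790.4 ± 135 in spleen (1.49 ± 0.12, adjusted p = 4.7e-08). Hcst, the adaptor of NKG2D, was lower (-0.65 ± 0.20, adjusted p = 0.031), whereas its receptor Klrk1 was higher. Of 15 partners tested, 2 were higher, 1 was lower and 12 were not called. Of 5 ligand genes tested, H2-T23, which encodes Qa-1b, fell by 0.50 ± 0.10 on the log2 scale, Clec2d (Clr-b) by 0.79 ± 0.19 and Clec2i (Clr-g) by 1.04 ± 0.19. Cdh1, the cadherin that KLRG1 binds, measured 479, 514 and 598 in thymus and 8.20, 3.70 and 0 in spleen (7.24 ± 0.77, adjusted p = 2.0e-06, limma). That fold change depends on the pseudocount, since 1 spleen library was at 0. Cdh1 RNA of the sorted thymus cells was thus high where Klrg1 reads were few, and neither protein was measured. Thymocyte markers were high in the same libraries, and their part in the Cdh1 value was not tested. Of 15 transcription factors and cytokine receptors, Tcf7 was higher in thymus (1.65 ± 0.21) and 5 were lower, among them Prdm1 (-1.74 ± 0.21), Stat4 (-1.20 ± 0.17) and Tbx21 (-0.68 ± 0.10). Against liver_C the lists gave 3 higher and 1 lower of 15 partners, 1 and 3 of 5 ligands and 3 and 6 of 15 factors and cytokine receptors.

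**Figure D2:**
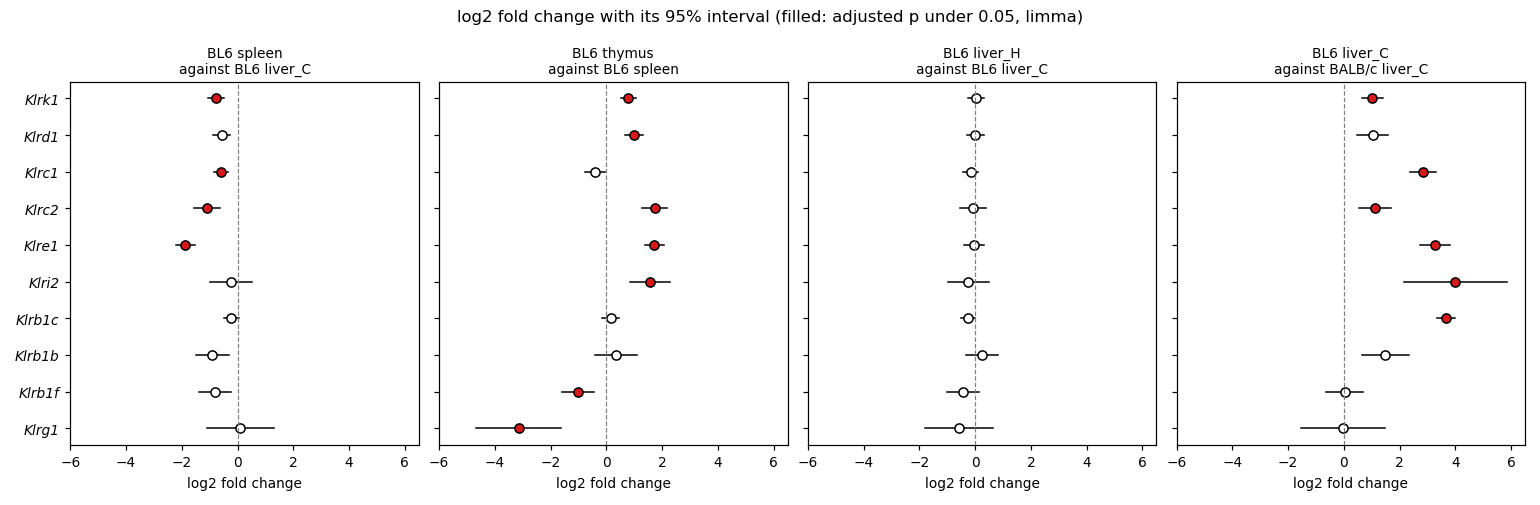
Log2 fold change (x axis) of each of the 10 genes (y axis) in 4 comparisons (panels), with its 95% interval as a line, filled where the adjusted p was under 0.05 (limma). Klre1 is at -1.87 in spleen against liver_C and at 1.72 in thymus against spleen, all 10 intervals of liver_H against liver_C include 0, and Klrb1c is at 3.66 between the strains.

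Since NKG2A and NKG2C share CD94 and signal with opposite effect, the ratio of Klrc1 to Klrc2 reads was taken in each library, a measure chosen after the levels had been seen. In thymus the ratio was 3.53, 2.85 and 2.94, and in spleen it was 11.3, 15.5 and 14.5. Liver_C gave 7.87, 10.8 and 10.2, liver_H 10.5, 8.94 and 8.06 and blood 5.08, 11.6 and 9.58. BALB/c liver_C gave 3.59 and 2.36 and BALB/c liver_H 2.43, 2.24 and 1.96. The thymus and the BALB/c livers were therefore low and the spleen was high, with no overlap between spleen and thymus, liver_C and thymus, or spleen and liver_C. The 6 BL6 and the 5 BALB/c liver libraries did not overlap either, and their mean log2 ratios differed by 1.92. No test is given for these ratios, since they follow from levels already seen and some liver_C and liver_H libraries may share mice. The ratio of Klre1 to Klri2 lay between 1.42 and 2.92 in thymus and between 1.38 and 2.80 in spleen, but between 4.90 and 7.17 in liver_C and between 4.13 and 7.95 in blood. Spleen therefore differed from liver_C in Klre1, whereas Klri2 was not called (95% interval -0.98 to 0.50). BL6 liver_H gave Klre1 to Klri2 ratios of 4.34 to 10.8. The BALB/c ratios spread widely, at 3.26 and 46 in liver_C and 1.52 to 12.7 in liver_H, and rested on few Klri2 reads.

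**Figure D3:**
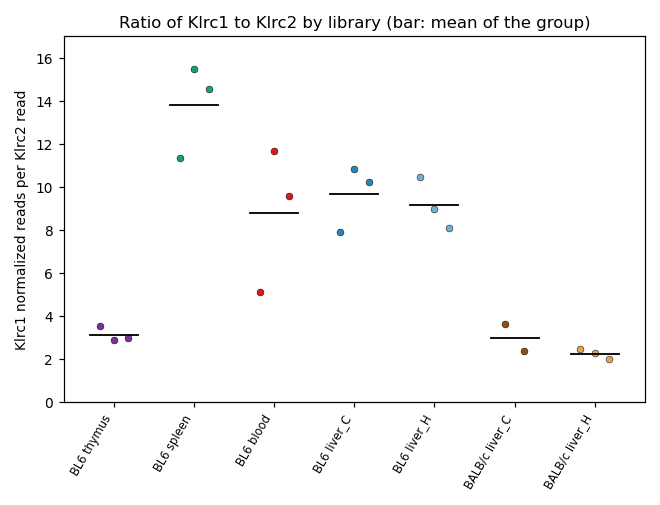
Klrc1 normalized reads per Klrc2 read (y axis, linear from 0) in each library, by group on the x axis, with a bar at the group mean. The 3 thymus libraries lie between 2.85 and 3.53, the 3 spleen libraries between 11.3 and 15.5, and the 5 BALB/c libraries between 1.96 and 3.59.

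Digestion at 37 °C was compared with cold preparation in each strain. In BL6 no member was called (limma), with 0 of 10 at an unadjusted p under 0.05 and 0 with edgeR and DESeq2, whereas 1.63% of the 12802 genes tested were higher and 0.766% lower in liver_H. BL6 liver_H and liver_C shared only the second number range, with 1 library of each, so preparation and number range are hard to tell apart. With the number range as a block 0 members were called, and the number of all genes called went from 307 to 90. Klrk1 measured 1785, 1744 and 2141 in liver_H and 1957, 1646 and 1981 in liver_C, Klrd1 585, 699 and 854 and 649.8, 746 and 704, and Klre1 414, 505 and 603 and 521, 532 and 491. The libraries overlapped in each, and the 95% intervals of the log2 fold change were -0.26 to 0.30, -0.30 to 0.32 and -0.39 to 0.32. Klrb1c was the member whose libraries did not overlap, at 2493, 2624 and 2406 in liver_H and 2632, 3119 and 3259.7 in liver_C (log2 fold change -0.26 ± 0.13, adjusted p = 0.35, limma). The low-read genes were less certain, with an interval of -1.79 to 0.63 for Klrg1 and -0.99 to 0.49 for Klri2. Of the 4 lists, only Tcf7, a factor of immature and memory T cells, was called higher (0.73 ± 0.13, adjusted p = 0.0081, limma). CD8 T cell markers were called higher in liver_H in 2 of 2 genes, at a sum of 47.7 to 162 against 10.2 to 25.9, and their part in any member's value was not tested.

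In BALB/c no member was called either (limma), 0 with edgeR and DESeq2, where 0.258% of 13202 genes were higher and 0.0151% lower in liver_H. At an unadjusted p under 0.05 there was 1, Klrc2, at 181, 175 and 259 in liver_H and 142 and 125 in liver_C (log2 fold change 0.60 ± 0.27, adjusted p = 0.56, limma). With 2 liver_C libraries the intervals were wider, -0.01 to 0.77 for Klrk1 and -0.27 to 0.67 for Klrc1. The effect of digestion was also compared between the strains, and 0 members passed (0 at an unadjusted p under 0.05, 0 with edgeR and DESeq2), where 0% of genes were higher and 0% lower. The largest such difference among genes with over 100 reads was that of Klrc2, -0.69 ± 0.36 on the log2 scale with an interval of -1.47 to 0.10.

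The strain made the largest differences among the members. In the cold Klrb1c, Klrc1, Klre1, Klri2, Klrc2 and Klrk1 were higher in BL6 liver than in BALB/c liver, 6 of 10, and none was lower, where 1.41% of 13202 genes were higher and 1.17% lower in BL6. In digested liver Klrb1c, Klrc1, Klre1, Klrd1 and Klrk1 were higher, 5 of 10, and none was lower, where 1.91% were higher and 1.8% lower. The median log2 fold change was 1.30 and 1.04 over the members and 0.00 over all genes in each.

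Klrb1c, the gene for NK1.1, measured 2632, 3119 and 3259.7 normalized reads in BL6 liver_C and 2493, 2624 and 2406 in BL6 liver_H, against 228 and 245 in BALB/c liver_C and 219, 205 and 243 in BALB/c liver_H. It was 12.6-fold and 11.2-fold higher in BL6 (log2 fold change 3.66 ± 0.15 and 3.49 ± 0.14, adjusted p = 3.1e-08 and 7.4e-09, limma). Antibodies to NK1.1 are known not to stain BALB/c cells, yet every BALB/c library held 205 to 245 normalized reads. Klre1 measured 68.5 and 40.15 in BALB/c liver_C and 67.9, 60.03 and 71.8 in BALB/c liver_H, below every BL6 library of any organ. It was 9.63-fold and 7.46-fold higher in BL6 (log2 fold change 3.27 ± 0.26 and 2.90 ± 0.23, adjusted p = 3.5e-06 and 3.6e-06, limma). Klrc1 measured 508 and 294 and 440.0, 393 and 508 in the BALB/c groups, 7.13-fold and 5.57-fold below BL6 (log2 fold change 2.83 ± 0.22 and 2.48 ± 0.20, adjusted p = 3.3e-06 and 3.6e-06, limma). These 3 genes were called in both preparations, with no overlap between any BL6 and any BALB/c liver library.

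Smaller differences were less firm. Klrk1 measured 941 and 888 and 962.1, 1229.1 and 1419 in the BALB/c groups, 2.03-fold below BL6 in the cold and 1.58-fold after digestion (adjusted p = 0.0059 and 0.037, limma). Klrd1 measured 469 and 246 and 329.7, 338 and 459 and differed by 1.04 ± 0.26 and 0.92 ± 0.23 (adjusted p = 0.054 and 0.043, limma). Without a filter, or without any 1 of the libraries N1224, N1383, N0963, N0969, N1225, N0971 and N0972, Klrk1 and Klrd1 missed the threshold in digested liver and the count was 3 (adjusted p = 0.055 to 0.17). Klrd1 also missed it there without N1379 (adjusted p = 0.065) and passed in the cold without N0970 (adjusted p = 0.0069) or N1229 (adjusted p = 0.036), with DESeq2 (adjusted p = 0.014) and with all 20 libraries in the fit (adjusted p = 0.0094). With the filter of over 300 it missed the threshold in digested liver (adjusted p = 0.056). Klrc2 differed by 1.12 ± 0.27 in the cold (adjusted p = 0.046, limma) and by 0.43 ± 0.24 after digestion (adjusted p = 0.43), and the call in the cold was lost with no filter (adjusted p = 0.076), with the filter of over 300 (adjusted p = 0.062), with the number range as a block (adjusted p = 0.19) and without any 1 of the libraries N1224, N1379, N1383, N0969, N1225, N0970, N1227, N0971 and N0972 (adjusted p = 0.055 to 0.19). Klri2 measured 1.49 and 12.3 in BALB/c liver_C and 7.07, 4.74 and 47.2 in BALB/c liver_H, and library N1229 stood above the other 4. After digestion the log2 fold change was 2.57 ± 0.77 (adjusted p = 0.096, limma), and 3.51 without N1229 (adjusted p = 0.0066). It also passed with the number range as a block (adjusted p = 0.012), with all 20 libraries in the fit (adjusted p = 0.018), with a pseudocount of 10 and without N0970 (adjusted p = 0.046). In the cold its pooled reads were 350 in BL6 and 28 in BALB/c, a 9.04-fold difference with a counting interval of 6.15 to 13.8 (log2 fold change 4.002 ± 0.86, adjusted p = 0.023, limma). That call was lost with edgeR (adjusted p = 0.058), with the number range as a block (log2 fold change 2.73, adjusted p = 0.24), and without BL6 liver_C library N1224, N1379 or N1383 (adjusted p = 0.06 to 0.093) or BALB/c liver_C library N0970, where the log2 fold change was 2.79 (adjusted p = 0.34).

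Klrb1f and Klrg1 were not called between the strains in either preparation (limma, adjusted p of 0.99 and 0.98 for Klrb1f and 1 and 0.52 for Klrg1). Klrb1f measured 298 ± 42.0 in BL6 and 291 ± 51.5 in BALB/c liver_C (n = 2), and 232 ± 104 and 224 ± 40.6 in liver_H, with intervals of -0.62 to 0.70 and -0.61 to 0.57. Klrg1 was at 23.0 ± 11.6 and 21.5 ± 3.30 in liver_C, with a wide interval of -1.54 to 1.49. Klrb1b, the inhibitory NKR-P1 receptor, was at 71.5, 64.1 and 90.3 in BL6 and 38.7 and 17.3 in BALB/c liver_C, which missed the threshold (adjusted p = 0.077, limma) and passed with DESeq2 (adjusted p = 0.011) and without library N0970 (adjusted p = 0.038). After digestion it was not called (adjusted p = 0.1, limma) and passed with DESeq2 (adjusted p = 0.031). The remaining NKR-P1 gene went the other way. Klrb1a measured 1.10, 0 and 0 in BL6 and 64.1 and 72.5 in BALB/c liver_C, and 5.24, 0 and 4.57 and 60.8, 72.7 and 34.3 in liver_H. By reads it was 139.6-fold higher in BALB/c in the cold (202 and 2 reads, counting interval 38.2 to 1161) and 14.0-fold after digestion (121 and 12 reads, 7.72 to 27.8), and it was called in both (adjusted p = 0.002 and 0.0093, limma). The NKR-P1 genes of neighbouring position therefore differed between the strains in both directions.

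**Figure D4:**
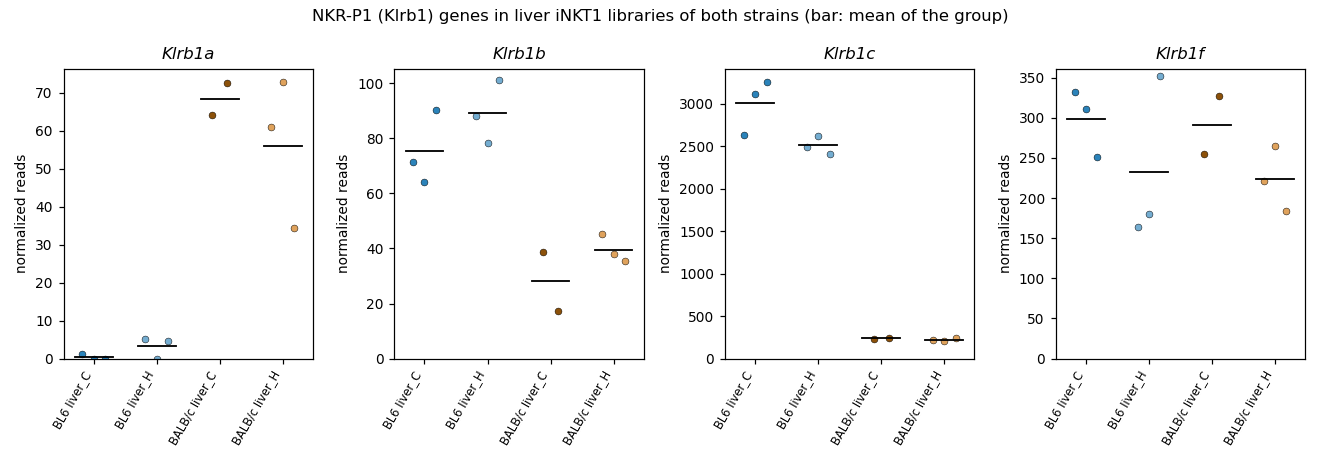
Normalized reads (y axis, linear from 0, scaled per panel) of the 4 NKR-P1 genes Klrb1a, Klrb1b, Klrb1c and Klrb1f in the 11 liver libraries, by group on the x axis, with a bar at the group mean. Klrb1a is at 0 to 5.24 in BL6 and 34.3 to 72.7 in BALB/c, Klrb1c is at 2406 to 3259.7 and 205 to 245, and the Klrb1f libraries of both strains overlap.

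Within the number ranges that hold both strains the called genes kept their direction, 6 of 6 in the cold in the second range and 5 of 5 after digestion in both the first and the second. That direction was fixed in advance, since the BL6 and BALB/c libraries compared did not overlap for any called gene. Klrb1c differed by 3.42 in the cold and by 3.59 and 3.30 after digestion on the log2 scale, and Klre1 by 3.67, 2.82 and 3.05. Natural killer cell markers summed to 276 to 411 in BL6 and 379 to 551 in BALB/c liver libraries, and Ncr1 was at 0 to 28.7 in BL6 and 30.6 to 126 in BALB/c. The Ncr1 libraries did not overlap and were higher in BALB/c, but Ncr1 was not called (adjusted p = 0.093 and 0.18, limma). Tyrobp and Klra8 went the other way in liver_C, with Tyrobp at 26.4 to 34.7 in BL6 and 14.9 to 16.4 in BALB/c. None of the 6 natural killer cell markers tested was called in either preparation (limma). The part of such cells in the result was not tested.

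Of 15 signalling partners tested, 0 were called between the strains in either preparation, and of 15 factors and cytokine receptors 0 were called as well (limma). At an unadjusted p under 0.05 there were 0 and 5 in the cold and 2 and 3 after digestion. Of 5 ligand genes, 2 were lower in BL6 in both preparations. H2-T23, the ligand of NKG2A and NKG2C, measured 1745, 1929.6 and 1796 in BL6 and 3498 and 2888 in BALB/c liver_C (log2 fold change -0.80 ± 0.15, adjusted p = 0.0073, limma), and -0.82 ± 0.13 was found after digestion (adjusted p = 0.002). H60b, a ligand of NKG2D, was at 0 in all 3 BL6 liver_C libraries and at 68.5 and 51.1 in BALB/c liver_C, at least 72.8-fold higher in BALB/c against a floor of 3 counts over the BL6 group. In liver_H it measured 0, 0 and 9.79 in BL6 and 218, 239 and 238 in BALB/c, and library N1225 held all 15 BL6 reads. Klri1, the inhibitory partner of KLRE1, was higher in BALB/c liver_H, at 14.1, 39.5 and 25.7 against 0, 0 and 1.96 in BL6 (adjusted p = 0.045, limma). Those BALB/c values rested on 10 to 25 reads per library. In liver_C Klri1 was at 0 to 10.2 in BL6 and at 1.49 and 5.93 in BALB/c, which overlapped, and it was not called (limma). Klrc1 was thus higher in BL6 and its ligand gene H2-T23 in BALB/c, and so it was for Klrk1 and H60b, in both preparations. The other 3 ligand genes tested were not called. Ulbp1, a low-read gene of the ligand list, had the higher mean in BL6 in both preparations, with libraries that overlapped between the strains. The Klrk1 call in digested liver was not firm, as given above. The part of strain sequence differences in the ligand counts was not tested.

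How the members varied together was described over libraries that share organs, strains and depth, without a test. Over the 15 BL6 libraries the Pearson correlation of log2(value + 1) was highest for Klrk1 with Klre1 (r = 0.91), Klrd1 with Klrc2 (r = 0.86), Klrk1 with Klrc2 (r = 0.80) and Klrc2 with Klre1 (r = 0.79). Klrb1f went with Klrg1 (r = 0.76) and with Klrc1 (r = 0.73). Over all 20 libraries the genes most like Klrb1c among 8107 with a mean of at least 100 were Ifi213 (r = 0.99) and Arl2bp (r = 0.99), on chromosomes 1 and 8. For Klrc1 they were Gm36723 (r = 0.95) and Ighm (r = 0.95), and for Klre1 Crip1 (r = 0.95) and Ly6c2 (r = 0.94). Klrd1 was most like Klra1 (r = 0.87) and Ifngr1 (r = 0.86), the first a Ly49 receptor of the same gene complex, Klrk1 like Cemip2 (r = 0.85) and Tpm4 (r = 0.85), Klrc2 like Ybx3 (r = 0.87) and Cemip2 (r = 0.83), and Klrb1f like Stk39 (r = 0.91) and Tmem176a (r = 0.86). For Klrb1c and Klrc1 the 20 points fall mainly into 2 clusters, the strains, so such r describe that split.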

How the data were processed

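RNA of sorted CD4+ iNKT1 cells was sequenced in 20 libraries from a stranded total RNA kit without molecular identifiers (75 base single reads). The authors trimmed reads with Trim Galore 0.4.4, aligned them with STAR to GRCm38.p6, counted genes of GENCODE M17 with featureCounts and deposited a signal per gene and library, the read count divided by a DESeq2 size factor. Whole reads were recovered from these values within a tolerance of 0.05. Their columns of fold changes and p-values were not used, and 1 line that named no gene was left out.

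Groups were taken from the sample titles. Values were tested as log2(value + 1) with limma 3.58.1 (trend) in R 4.3.3, with Benjamini-Hochberg adjustment over all genes that reached 10 normalized reads in 3 or more libraries of the fit. A gene was called at an adjusted p under 0.05. Fits held BL6 spleen, liver_C and liver_H, the 4 liver groups, or the 5 BL6 groups. All 10 members are named, and from each list at most 4 genes called. The members and lists were chosen with earlier results of these data known. Alternatives were quantile normalization, other filters and pseudocounts, all libraries in 1 fit, edgeR 4.0.16 and DESeq2 1.42.0 on recovered reads, the range of library numbers as a block, and leaving out each library. Scripts were tested on simulated data. Ratio intervals are exact and cover counting error only. Coding sequences and shared stretches came from GENCODE M21.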

Additional observations from a re-analysis of the deposited data

How the results depend on the processing

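Of 2090 fold changes of members recomputed under the alternatives, 2003 kept their side of the threshold, 53 lost the call and 34 gained it. Among called values 0 changed sign. Uncalled values with a changed sign are counted among the 2003, as for Klrb1b in blood against liver_C. Its log2 fold change was -0.06 with all libraries of the fit and 0.08 without blood library N0962. The number of members called between blood and spleen was 1, and it was 2 with the filter of over 300, 2 with DESeq2 and 3 with the range of library numbers as a block. Between the strains in digested liver it was 5, and 3 with no filter. Leaving out each library in turn gave 2 to 5 members for spleen against liver_C (4 with all libraries), 4 to 7 for the strains in cold liver (6), 3 to 6 for the strains in digested liver (5), 1 to 2 for blood against spleen (1), 6 to 7 for thymus against spleen (7) and 2 to 5 for thymus against liver_C (4). It gave 0 for both comparisons of digestion, for the strain difference of digestion and for blood against liver_C. No paired analysis was possible because the labels do not say which liver_C and liver_H libraries came from the same mice. Klrg1, Klri2 in BALB/c, Klri1 and Klrb1a rested on few reads, which limits their fold changes. For spleen against liver_C the number of all genes called went from 326 to 174 with all 20 libraries, 181 with the filter of over 300, 572 with DESeq2 and 721 with the block. With the block that number fell for digestion in BL6 (307 to 90) and for the strains in cold liver (340 to 167), and it rose in all other comparisons. The cause of these shifts was not tested.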
